A study of Arabidopsis thaliana with 12 samples.

Results

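Salicylic acid (SA) is the hormone of defence against biotrophic pathogens, and shoots of *siz1* mutants are known for raised SA and constitutive expression of defence genes. The genes described here are 10 genes of SA immunity, chosen by name: *PR1* (AT2G14610), *PR2* (AT3G57260), *PR5* (AT1G75040), *ICS1* (AT1G74710), *EDS1* (AT3G48090), *PAD4* (AT3G52430), *EDS5* (AT4G39030), *SNC1* (AT4G16890), *WRKY70* (AT3G56400) and *NPR1* (AT1G64280). Of the 23853 genes in the table of root expression, 9 are of this set, and *PR1* was not analysed here. The level of 7 of the 9 was high enough for a test, and *PR2* and *PR5* were below the limit of at least 1 FPKM in at least 3 libraries, which 18743 genes passed. FPKM are fragments scaled to exon length and library size, so levels of different genes can be compared per length.

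RNA was sequenced from roots of wild-type Col-0 seedlings and of *siz1-2* seedlings, a T-DNA insertion line of *SIZ1* in the Col-0 background. SIZ1 is an E3 ligase that attaches the small protein SUMO to its targets. Seedlings grew on 1/2 MS medium at 22 °C for 7 days by the labels and were sampled without treatment (MS) or after 0.5 µM of the auxin IAA for 3 h, which gives 4 groups (Col-0 MS, *siz1-2* MS, Col-0 IAA and *siz1-2* IAA) of 3 libraries each. No other mutation or agent is named for any group, the mutant is 1 insertion line, and nothing in the sources says whether the 3 libraries of a group came from separate plates or pools of seedlings, so p-values measure the spread between these libraries, which may be technical.

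In the SA pathway, ICS1 makes isochorismate in the plastid and EDS5 exports it for the last steps of SA synthesis. EDS1 and PAD4 are partner proteins that act downstream of immune receptors of the TIR class, of which SNC1 is one, and raise SA synthesis. NPR1 is the SA receptor and coactivator through which SA switches on the *PR* genes, and WRKY70 is an SA-induced transcription factor that restrains jasmonate (JA) responses. PR2 is a beta-1,3-glucanase and PR5 a thaumatin-like protein, and both are read as outputs of the pathway.

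The libraries held between 19550600 and 22522166 fragments, read back from the FPKM and the exonic lengths. All 11 markers of root tissue were present in every library, with medians between 7.35 and 18.1 FPKM. The 25 markers of green shoot tissue summed to 182 to 466 FPKM in 10 libraries, but to 1630 FPKM in Col-0 IAA replicate 1 and 1231 FPKM in *siz1-2* IAA replicate 2, where even the lowest of the 25 markers reached 11.99 and 10.2 FPKM. Col-0 IAA replicate 1 also stood apart from the other libraries of its group by more than 1 on the log2 scale in 1848 genes, against 54 to 536 genes in the other 11 libraries, so results that rest on it are given with and without it. *SIZ1* itself had 23.8 ± 2.35 FPKM in Col-0 MS and 14.0 ± 0.738 in *siz1-2* MS (SD, n = 3), and 24.8 ± 3.12 and 14.5 ± 1.94 with IAA. It was lower in *siz1-2* by limma on log2(FPKM + 0.5), with p-values adjusted by Benjamini-Hochberg over all 18743 genes and a threshold of 0.05, which is the test used throughout (log2 fold change -0.74, adjusted p = 0.00563 on MS and -0.76, adjusted p = 0.00344 with IAA). The FPKM add all exons of the gene and do not tell which part of the transcript is left in the insertion line.

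The bases before the start of 4 of the genes are shown, because 3 of them (*ICS1*, *EDS5* and *PAD4*) changed with IAA in both genotypes and *WRKY70* is the transcription factor of the set. They are the 250 bases upstream of the RefSeq gene start in TAIR10.1, written 5′ to 3′ on the strand of the gene: chr1:28070045-28070294 (plus strand) for *ICS1*, chr4:18185187-18185436 (plus) for *EDS5*, chr3:19430845-19431094 (plus) for *PAD4* and chr3:20910624-20910873 (minus) for *WRKY70*. Capitals mark the W-box core TTGAC to which WRKY factors bind, the core TGACG of TGA factors, the DNA-binding partners of NPR1, and the auxin response element TGTCTC, each searched on both strands.
ICS1: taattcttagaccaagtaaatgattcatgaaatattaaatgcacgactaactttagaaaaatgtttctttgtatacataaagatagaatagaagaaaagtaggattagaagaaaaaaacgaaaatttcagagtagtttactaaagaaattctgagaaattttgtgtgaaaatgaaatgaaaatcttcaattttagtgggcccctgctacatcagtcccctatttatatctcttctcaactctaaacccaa
EDS5: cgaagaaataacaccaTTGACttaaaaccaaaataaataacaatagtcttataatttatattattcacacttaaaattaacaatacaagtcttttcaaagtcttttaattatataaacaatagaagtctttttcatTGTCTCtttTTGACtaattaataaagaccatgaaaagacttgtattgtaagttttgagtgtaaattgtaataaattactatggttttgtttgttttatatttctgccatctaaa
PAD4: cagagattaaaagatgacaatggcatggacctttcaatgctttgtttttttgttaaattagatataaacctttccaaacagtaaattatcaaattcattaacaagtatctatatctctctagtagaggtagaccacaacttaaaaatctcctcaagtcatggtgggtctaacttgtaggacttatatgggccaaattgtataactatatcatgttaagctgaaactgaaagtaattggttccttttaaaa
WRKY70: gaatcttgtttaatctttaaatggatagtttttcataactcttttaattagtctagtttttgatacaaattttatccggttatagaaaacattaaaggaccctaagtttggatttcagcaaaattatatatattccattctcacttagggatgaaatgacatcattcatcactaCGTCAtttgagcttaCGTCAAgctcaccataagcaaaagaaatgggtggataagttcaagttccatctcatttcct

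The window of *EDS5* held 2 W-box cores and 1 auxin response element. In that of *WRKY70*, 2 TGA cores lay on the reverse strand, and 1 of them overlaps its single W-box core in the run CGTCAA. No match of the 3 motifs was found in the windows of *ICS1*, *PAD4* and *PR2*. Of the 9 windows 5 had a W-box core, which 44.9% of the windows of 27443 protein-coding genes also had. The TGA core stood in 2 of 9 (18.6% of all windows), those of *SNC1* and *WRKY70*, and the auxin response element, searched after the changes with IAA had been seen, in 2 of 9 (10.95% of all windows), those of *EDS5* and *NPR1*. These matches are descriptions of the letters in the windows and were not set against the changes in level.

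Whether roots of *siz1-2* show the raised SA gene expression known from its shoots was asked first, by comparing the genotypes on each medium. On MS 0 of the 7 tested genes passed as higher and 0 as lower in *siz1-2*, where 2.75% and 2.55% of the 18743 genes passed in these directions. With IAA 0 passed in either direction, against 3.91% and 5.21% of all genes, and over both media 0, against 6.32% and 8.04%. The output genes *PR2* and *PR5* were at or next to 0 in all 4 groups. Over both media the log2 fold changes of the 7 genes ran from -0.35 (*WRKY70*) to 0.23 (*EDS5*). These are bulk roots, in which fewer cells that express a gene and less RNA per cell cannot be told apart.

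*PR2* was listed at 0 in 11 of the 12 libraries. The exception was *siz1-2* IAA replicate 2, with 0.278 FPKM from 9 fragments (exact Poisson 95% interval 0.127 to 0.527 FPKM). A count of 0 allows up to 3 fragments as a one-sided 95% limit, which corresponds to 0.0902 to 0.104 FPKM for this gene, and the two-sided exact interval of a count of 0 reached 0.111 to 0.128 FPKM. The only library with a signal was the one with the second-highest sum of green markers, and the part of that tissue in it was not tested. Intervals and limits of this kind cover counting error only.

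*PR5* had 0.0419 FPKM (1 fragment) in Col-0 MS replicate 1 and 0 in the other libraries on MS of either genotype. With IAA it had 0.187 FPKM (4 fragments) in Col-0 replicate 1, 0.0424 (1 fragment) in Col-0 replicate 2 and 0.208 (5 fragments) in *siz1-2* replicate 2, with 0 in the other 3. The 2 highest values fell in the 2 libraries with the most green marker RNA, whose part in them was not tested. The one-sided limit of 3 fragments was 0.122 to 0.140 FPKM over the 12 libraries, and the two-sided interval reached 0.150 to 0.166 FPKM in the libraries at 0. An exact two-sided permutation test of the genotype labels within each medium (400 relabellings) gave p = 0.7 for *PR5*, where the smallest p that its 4 values above 0 allow is 0.05. For *PR2*, with 1 library above 0, every relabelling gives a difference of the same size, so the test is void.

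*ICS1*, the first committed enzyme of SA synthesis, had 3.60, 4.24 and 3.51 FPKM in the libraries of Col-0 MS and 3.52, 3.82 and 4.08 in those of *siz1-2* MS, between 75 and 201 fragments over all libraries. The ranges overlapped almost fully. The log2 fold change was 0.01 (SE 0.17, adjusted p = 0.979), with a 95% interval of the ratio of (FPKM + 0.5), the scale of all ratios given, from 0.778 to 1.305. With IAA the values were 1.76, 1.98 and 2.31 in Col-0 and 2.58, 2.78 and 1.91 in *siz1-2*, which overlapped again (0.21, adjusted p = 0.478).

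*EDS5* had 16.8, 22.5 and 21.4 FPKM in Col-0 MS and 22.4, 26.3 and 17.1 in *siz1-2* MS, so neither genotype stood above the other (log2 fold change 0.11, adjusted p = 0.778). With IAA it had 9.28, 7.72 and 7.80 FPKM in Col-0 and 9.32, 12.4 and 10.4 in *siz1-2*. Here the lowest *siz1-2* value lay just above the highest Col-0 value, and the difference of 0.35 on the log2 scale (95% interval of the ratio 0.982 to 1.66) did not pass the test (adjusted p = 0.233).

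*EDS1* (chr3:17755329-17758147, minus strand) was the member whose values depended most on 1 library. It had 15.1, 13.9 and 12.8 FPKM in Col-0 MS and 10.5, 10.7 and 8.13 in *siz1-2* MS, with every mutant library below every wild-type library. The log2 fold change was -0.50 (SE 0.26), which did not pass the test (adjusted p = 0.333). In Col-0 IAA the values were 8.40, 21.6 and 18.1 FPKM, and in *siz1-2* IAA 16.7, 14.5 and 16.0. The value of 8.40 was that of replicate 1, the library with the most green marker RNA, while *siz1-2* IAA replicate 2, the other such library, had the lowest value of its group, next to 16.0 and 16.7.

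Without Col-0 IAA replicate 1, *EDS1* passed the test as lower in *siz1-2* on MS (log2 fold change -0.50, adjusted p = 0.0252) and over both media (-0.41, adjusted p = 0.00869), but not with IAA (-0.32, adjusted p = 0.172, against 0.07 with that library). The change on MS has the same size in both fits because all 6 MS libraries are in each, and the fits differ in the spread estimated for the gene. Over all genes, the fit without that library called 2177 of 18691 on MS and 4382 over both media, against 994 and 2691 with it. The neighbouring copy AT3G48080, which lies next to *EDS1* and is near-identical to it, had 4.66, 4.102 and 3.01 FPKM in Col-0 MS and 3.22, 3.14 and 2.80 in *siz1-2* MS. In Col-0 IAA replicate 1 it had 2.28 FPKM, against 5.50 and 5.17 in the other libraries of the group, so this copy was low in the same library. Fragments shared by the 2 copies could have been counted for either, and both values are uncertain to that extent.

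**Figure D1:**
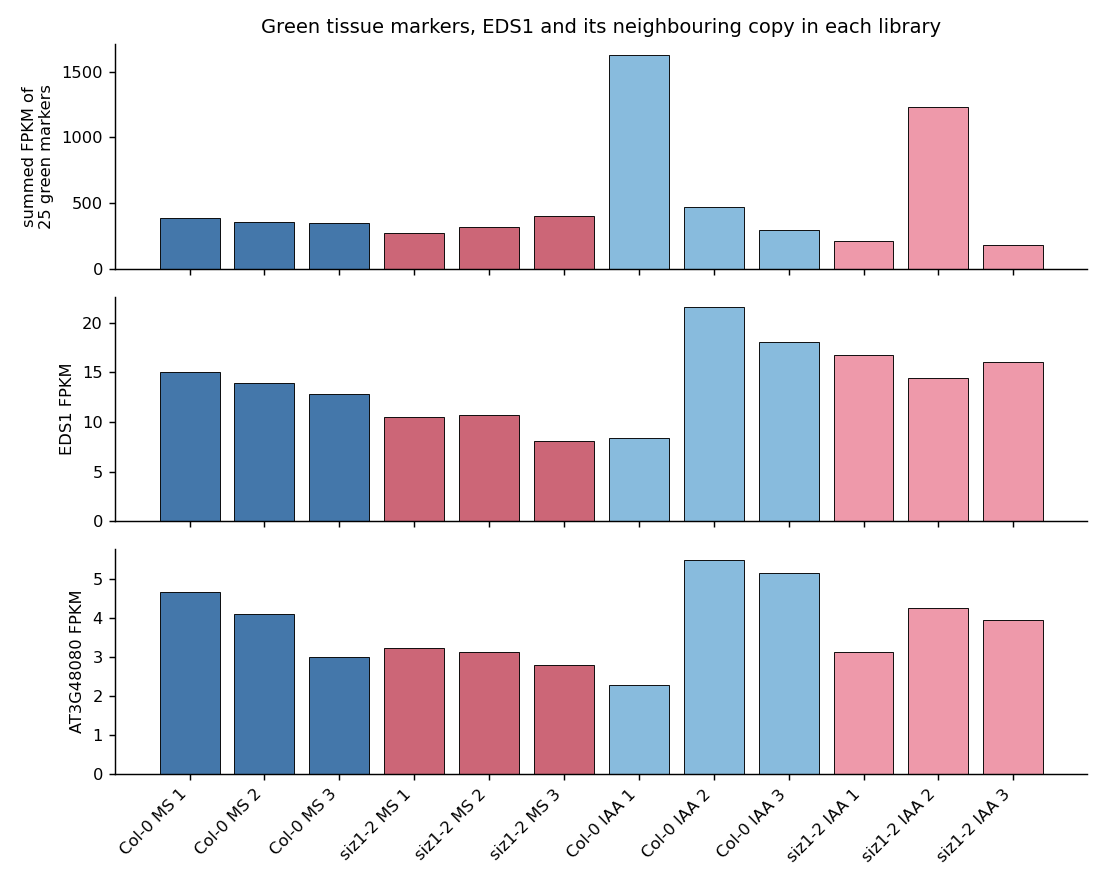
Summed FPKM of 25 green tissue markers (top), FPKM of *EDS1* (middle) and FPKM of its neighbouring copy AT3G48080 (bottom), 1 bar per library, in blue for Col-0 and red for *siz1-2*, darker on MS and lighter with IAA. Col-0 IAA replicate 1 has the highest marker sum (1630 FPKM) and the lowest *EDS1* value of the IAA libraries (8.40 FPKM), and the lowest value of the copy in any library (2.28 FPKM).

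*PAD4*, the partner of EDS1, had 11.5, 9.72 and 8.62 FPKM in Col-0 MS and 10.5, 10.5 and 10.6 in *siz1-2* MS, and the mutant values lay within the wild-type range. The log2 fold change was 0.09 (95% interval of the ratio 0.853 to 1.33, adjusted p = 0.775). With IAA, 14.0, 20.3 and 17.1 FPKM in Col-0 and 18.8, 16.1 and 17.4 in *siz1-2* gave 0.04 (adjusted p = 0.893).

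*SNC1* (chr4:9500271-9505972, minus strand), the TIR-class receptor whose gain of function gives autoimmunity in shoots, had 3.98, 3.65 and 2.98 FPKM in Col-0 MS and 2.69, 2.92 and 2.53 in *siz1-2* MS. All 3 mutant values were below the wild-type values. With IAA it had 2.98, 3.07 and 3.22 FPKM in Col-0 and 2.96, 2.97 and 2.47 in *siz1-2*, again without overlap, although the nearest values were 2.98 and 2.97 FPKM. Neither difference passed the test (log2 fold change -0.32, adjusted p = 0.299 on MS, and -0.12, adjusted p = 0.654 with IAA), nor did that over both media (-0.22, 95% interval of the ratio 0.725 to 1.01, adjusted p = 0.219). *SNC1* belongs to a cluster of related receptor genes, and counting could split fragments between its members.

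*NPR1* (chr1:23852748-23855658, minus strand) was expressed at 20.6, 18.6 and 16.8 FPKM in Col-0 MS and 17.3, 18.6 and 16.4 in *siz1-2* MS, with overlapping ranges. With IAA it had 19.5, 22.2 and 19.5 FPKM in Col-0 and 18.9, 16.7 and 18.4 in *siz1-2*, where the mutant values were all lower. The log2 fold changes were -0.09 (adjusted p = 0.705) and -0.18 (adjusted p = 0.374). This was the most narrowly bounded member. Its ratio of *siz1-2* to Col-0 over both media was 0.911, with confidence limits of 0.805 and 1.03.

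*WRKY70* had the lowest level of the 7 tested genes, from 15 to 72 fragments per library. Its values were 2.25, 1.50 and 2.25 FPKM in Col-0 MS and 1.24, 0.619 and 2.24 in *siz1-2* MS. In the mutant, replicate 3 was thus level with the wild type and replicates 1 and 2 were below it. With IAA the values were 0.522, 1.26 and 0.790 FPKM in Col-0 and 0.643, 0.682 and 0.642 in *siz1-2*, a narrow range within that of Col-0. The differences of -0.50 (adjusted p = 0.404) and -0.20 (adjusted p = 0.717) on the log2 scale did not pass. On MS the difference was -0.18 without *siz1-2* MS replicate 2 and -0.83 without *siz1-2* MS replicate 3, and neither passed.

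In the 3 comparisons of the genotypes with limma, 0 of the 7 had an unadjusted p under 0.05, and the other tool run, voom on the fragments, also called 0. A share of 0 in 7 is near the background shares, so the count is not a result about these genes. Over both media the ratio of *siz1-2* to Col-0 ran from 0.785 (*WRKY70*) to 1.17 (*EDS5*). The confidence limits of this ratio lay between 0.571 and 1.41 for all 7. The median log2 fold change of the 7 was -0.13, beside -0.03 over all genes tested. Groups did not overlap on MS for *EDS1* and *SNC1*, 2 of 7 against 32.7% of all genes, and with IAA for *EDS5*, *SNC1* and *NPR1*, 3 of 7 against 28.7%.

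Leaving out *siz1-2* MS replicate 3 and Col-0 IAA replicate 1 together, an alternative chosen after the data had been seen, gave 3 calls over both media: *EDS1* lower (-0.35, adjusted p = 0.0143), *WRKY70* lower (-0.60, adjusted p = 0.0284) and *EDS5* higher (0.35, adjusted p = 0.0368). These 2 libraries are called the chosen pair below. In *siz1-2* MS replicate 3, 304 genes lay more than 1 on the log2 scale from its group. Col-0 IAA replicates 2 and 3, which were kept, had more such genes (318 and 536).

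**Figure D2:**
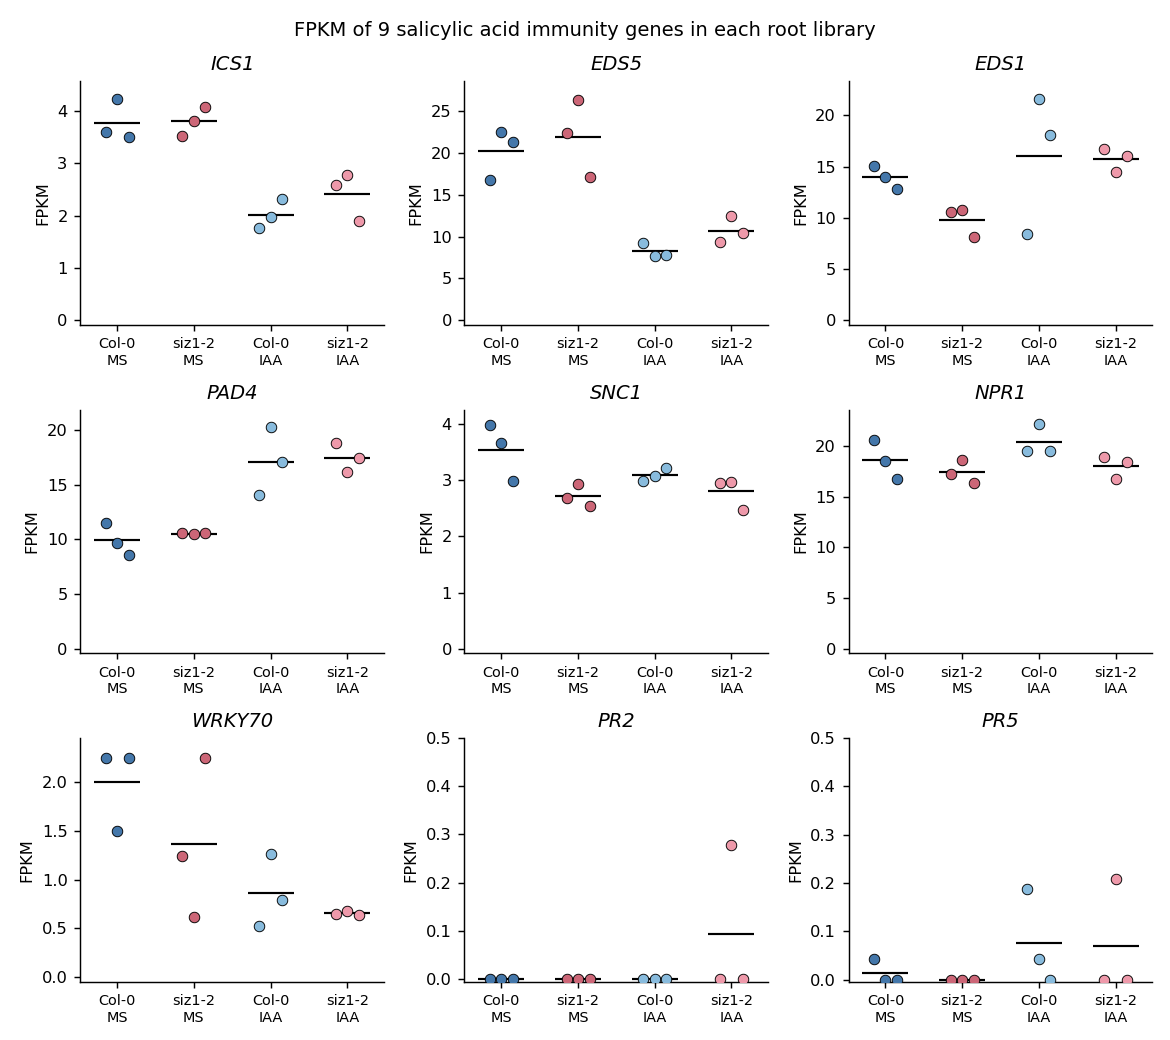
FPKM (linear axes) of 9 SA immunity genes in the 4 groups, 1 point per library in the order of the replicate numbers, with the group mean as a line. *PR2* reaches at most 0.278 FPKM and *PR5* at most 0.208, *ICS1* and *EDS5* are lower with IAA in both genotypes, *PAD4* is higher, and no gene is separated by genotype on both media except *SNC1*, whose difference did not pass the test.

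The second question was how these genes respond to auxin, and whether that response differs in the mutant. In Col-0 1 gene passed as higher and 2 as lower after IAA, where 9.09% and 8.21% of all genes passed, and the counts in *siz1-2* were also 1 and 2, against 9.81% and 8.06%. In both genotypes the 2 genes of SA synthesis, *ICS1* and *EDS5*, fell after 3 h of IAA and *PAD4* rose. *NPR1* and *SNC1* had log2 fold changes between -0.16 and 0.13. The responses of *siz1-2* and Col-0 were not shown to differ for any of the 7 genes.

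*EDS5* had the largest change of the 7. In Col-0 it averaged 20.2 ± 3.03 FPKM on MS and 8.27 ± 0.873 after IAA (SD, n = 3). The averages in *siz1-2* were 21.9 ± 4.61 and 10.7 ± 1.57 FPKM. The lowest MS value, 16.8 FPKM, was above the highest IAA value, 12.4 FPKM. The log2 fold changes were -1.23 (SE 0.17, adjusted p = 0.000261) and -0.99 (SE 0.17, adjusted p = 0.00157).

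*ICS1* averaged 3.78 ± 0.397 FPKM on MS and 2.02 ± 0.28 after IAA in Col-0, and 3.81 ± 0.277 and 2.42 ± 0.459 in *siz1-2*, also without overlap. It fell by 0.77 (SE 0.17, adjusted p = 0.00781) and by 0.57 (SE 0.17, adjusted p = 0.0366) on the log2 scale. The call in *siz1-2* was close to the threshold, and adjusted p rose to between 0.0503 and 0.16 when any of 6 libraries was left out (Col-0 MS replicate 2, any of the 3 of *siz1-2* MS, or replicate 1 or 3 of *siz1-2* IAA).

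*PAD4* averaged 9.94 ± 1.43 FPKM on MS and 17.1 ± 3.12 after IAA in Col-0, and 10.5 ± 0.0533 and 17.5 ± 1.33 in *siz1-2*. Every IAA library was above every MS library. It rose by 0.75 (SE 0.15, adjusted p = 0.00333) and 0.70 (SE 0.15, adjusted p = 0.00545) on the log2 scale, which are ratios of 1.68 and 1.62.

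*EDS1*, its partner, had 13.9 ± 1.12 and 16.0 ± 6.82 FPKM in Col-0 on MS and with IAA, where the SD is set by replicate 1, and 9.80 ± 1.45 and 15.7 ± 1.16 FPKM in *siz1-2*, where the groups did not overlap. The log2 fold change of 0.66 (SE 0.26) in *siz1-2* did not pass (adjusted p = 0.0938), nor did that of 0.09 in Col-0 (adjusted p = 0.842). Without Col-0 IAA replicate 1, *EDS1* rose in both genotypes (0.49, adjusted p = 0.0279 in Col-0, and 0.66, adjusted p = 0.00197 in *siz1-2*). The change in *siz1-2* also passed when only the 6 libraries of that genotype were fitted (adjusted p = 0.00513). Genes called with IAA went from 3241 to 3927 in Col-0 and from 3349 to 5482 in *siz1-2* without that Col-0 library. With only the *siz1-2* libraries 5750 were called.

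*WRKY70* averaged 2.00 ± 0.431 FPKM on MS and 0.859 ± 0.376 after IAA in Col-0, with no overlap. It averaged 1.37 ± 0.819 and 0.656 ± 0.0229 FPKM in *siz1-2*, where replicate 2 on MS lay below the IAA values. The log2 fold changes were -0.90 (adjusted p = 0.057) and -0.60 (adjusted p = 0.196), and neither passed. The first crossed the threshold with median centring (adjusted p = 0.0497) and without *siz1-2* MS replicate 2 (0.031), *siz1-2* MS replicate 3 (0.0268) or Col-0 IAA replicate 2 (0.0415).

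The shares of the 7 genes called with IAA were not read as a result about the set. Groups on MS and with IAA did not overlap for 4 of 7 in Col-0, against 29.6% of all genes, and for 4 of 7 in *siz1-2*, against 47.5%. For the difference between the 2 responses, 0 of 7 passed and 0 had an unadjusted p under 0.05 with limma, and voom called 0. Of all 18743 genes 3 passed, which is 0.016%. With all libraries the largest difference was that of *EDS1*, 0.57 on the log2 scale (95% interval -0.22 to 1.36, adjusted p = 0.495). It ranged from 0.17 to 0.83 when 1 library was left out. Without Col-0 IAA replicate 1 the responses of *EDS1* were 0.49 in Col-0 and 0.66 in *siz1-2*. For *EDS5* and *ICS1* the fall in *siz1-2* was smaller by 0.24 and 0.20 with all libraries (adjusted p = 0.653 and 0.717).

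**Figure D3:**
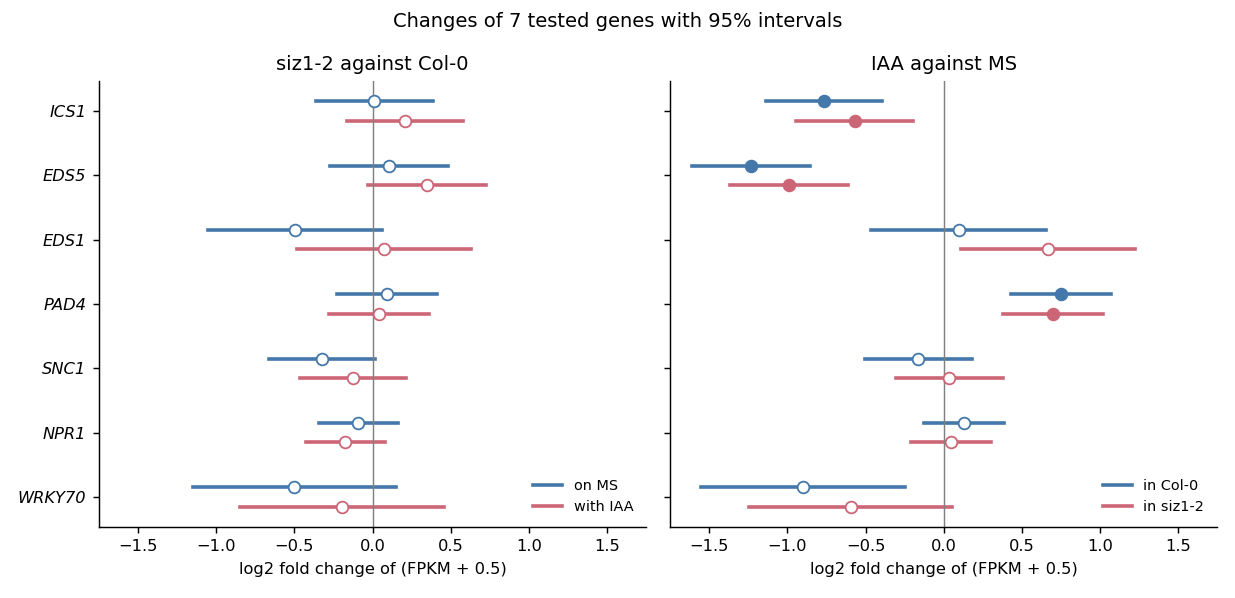
Log2 fold change of (FPKM + 0.5) with its 95% interval for the 7 tested genes, *siz1-2* against Col-0 (left) and IAA against MS (right), with filled points where the adjusted p is under 0.05. No point is filled on the left, and *ICS1*, *EDS5* and *PAD4* are filled in both genotypes on the right, between -1.23 and 0.75.

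Per length, *EDS5* (20.2 FPKM) and *NPR1* (18.6) were the highest of the set in Col-0 MS and did not differ beyond their spread. *EDS1* (13.9) and *PAD4* (9.94) followed, then *ICS1* (3.78) and *SNC1* (3.54), which overlapped, and *WRKY70* (2.00). With IAA the mean of *EDS5* was below those of *EDS1*, *PAD4* and *NPR1* in both genotypes. Over the 12 libraries, which share the 4 groups, *EDS5* and *ICS1* went together (Pearson r = 0.88) and *PAD4* went against both (r = -0.92 with *EDS5* and -0.82 with *ICS1*). Within groups the correlation of *ICS1* and *EDS5* was -0.02 and that of *EDS1* and *PAD4* was 0.80, and these are descriptions over 12 libraries.

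The genes whose pattern over the 12 libraries was most like that of each member were found among genes with a mean of at least 5 FPKM. For *EDS5* they were the aquaporin gene *PIP1;4*, the expansin-like gene *EXLA2* and AT2G44940 (r = 0.98 each). For *ICS1* they were *BIP2* (0.95), which encodes a chaperone of the endoplasmic reticulum, *CER4* (0.94) and AT2G39040 (0.94). *PAD4* was most like *WRKY27*, *ROPGEF14* and AT2G18193 (0.97 each), and *EDS1* most like the histidine kinase gene *HK5* (0.98), *TLP7* (0.98) and *DL1E* (0.97). The closest to *SNC1* was *P5CS1* (0.93), a gene of proline synthesis, followed by AT1G69360 (0.92) and *SS2* (0.91). For *WRKY70* they were AT2G43200 (0.91), *AUR2* (0.89) and *CRT1a* (0.89), and for *NPR1* they were *LCAT3* (0.94), *PP2-A13* (0.90) and AT5G57480 (0.89). No member was among the 3 closest of another.

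The rest of the pathway was read from lists of named genes, as counts of those that passed in *siz1-2* against Col-0 over both media, where 6.32% of all tested genes were higher and 8.04% lower. Of 10 further genes of SA synthesis and its activators 6 were tested, 3 were higher and 1 lower, with a median log2 fold change of 0.38. *EPS1*, the enzyme that releases SA from isochorismoyl-glutamate, had 8.32, 8.67 and 6.59 FPKM in Col-0 MS against 13.6, 15.03 and 12.2 in *siz1-2* MS, and 8.73, 10.1 and 10.8 against 17.1, 19.2 and 19.9 with IAA. All 6 mutant libraries were above all 6 wild-type libraries, and the log2 fold change was 0.83 (SE 0.10, adjusted p = 0.00012). *PAL1* and *PAL2*, phenylalanine ammonia-lyases at the entry of phenylpropanoid synthesis, rose by 0.43 (adjusted p = 0.0241) and 0.34 (adjusted p = 0.0392), while *PAL4* of the same family fell by 0.88 (adjusted p = 0.000668). The call of *PAL2* was lost when the 2 libraries with the most green marker RNA were left out (adjusted p = 0.0595). *CBP60g*, a transcription factor gene that activates *ICS1* and is named here after its values were seen, had 1.21 (adjusted p = 0.15) with all libraries and passed without *siz1-2* MS replicate 3 (0.57, adjusted p = 0.0152), its highest library, so that 4 genes of the list were then higher.

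Pipecolic acid and its N-hydroxylated form are mobile immune signals that act beside SA. Of 4 genes of this branch 2 were higher, *FMO1*, the N-hydroxylase, and *UGT76B1*, the enzyme that glucosylates the product. *FMO1* had 0.814, 1.06 and 0.902 FPKM in Col-0 MS and 1.46, 1.80 and 3.44 in *siz1-2* MS, and 0.321, 0.412 and 0.536 against 1.62, 1.57 and 1.73 with IAA (log2 fold change 1.05, adjusted p = 0.00106). *UGT76B1* was at 85.1 ± 6.87 and 123 ± 6.99 FPKM on MS and 73.8 ± 8.24 and 108 ± 8.20 FPKM with IAA (SD, n = 3; 0.54, adjusted p = 0.000469). Both calls held without *siz1-2* MS replicate 3, the highest library for *FMO1*.

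Among 8 genes of SA metabolism 7 were tested and 1 was higher, the SA glucosyltransferase gene *UGT74F2* (0.43, adjusted p = 0.0498). Its call was lost without *siz1-2* MS replicate 3 (adjusted p = 0.0824), with the chosen pair (*siz1-2* MS replicate 3 and Col-0 IAA replicate 1) left out (0.0583), with the replicate block (0.0672) and with voom (0.0548). Of 14 NPR relatives, NIMIN and TGA partners 13 were tested and 1 was lower: *NPR3*, an SA receptor that represses defence genes, with 11.7, 12.4 and 8.30 FPKM in Col-0 MS and 6.73, 8.23 and 6.59 in *siz1-2* MS (over both media -0.44, adjusted p = 0.0203). With the 2 libraries richest in green marker RNA left out 5 of the 13 were lower and 1 higher, and with the chosen pair left out 6 were lower and 1 higher. Among these, named after their values were seen, *NPR4* then had -0.57 (adjusted p = 0.00142, against -0.42 and 0.119 with all libraries) and *TGA1* -0.53 (adjusted p = 0.000183, against -0.40 and 0.124). Of 7 genes in a list of EDS1 partners, helper receptors and *NDR1*, which is neither, 2 were lower, *NDR1* (-0.52, adjusted p = 0.0332) and *ADR1-L1* (-0.30, adjusted p = 0.0389). Both lost the call without *siz1-2* MS replicate 3 (adjusted p = 0.0686 and 0.0663), and *NDR1* also with the chosen pair left out (0.0518). Of 4 tested neighbours of *SNC1* in its receptor cluster and 7 tested regulators of *SNC1*, 0 passed with limma and 0 with voom, while 2 and 1 had an unadjusted p under 0.05. With the 2 greenest libraries left out *RPP5* (-0.41, adjusted p = 0.0495) and *CPR1* (-0.53, adjusted p = 0.00152) were lower, and with the chosen pair left out AT4G16900 (-0.53, adjusted p = 0.0446) and *CPR1* (-0.53, adjusted p = 0.000897), all named after their values were seen.

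The SA-responsive genes beyond the members were mostly below the filter: 13 of 14 were in the table, 6 reached the test and 2 passed, in opposite directions. The glutathione transferase gene *GSTF6* was higher (1.46, adjusted p = 0.0374) and the glutaredoxin gene *GRXC9* lower (-0.80, adjusted p = 0.0367). *GSTF6* had 253 FPKM in *siz1-2* MS replicate 3 against 22.0 and 44.1 in the other libraries of that group, and without that library the change was 0.96 (adjusted p = 0.00644). Its call was lost with the 2 libraries richest in green marker RNA left out (adjusted p = 0.0572) and with voom (0.0502), and fragments may be shared with close relatives in its family. *GRXC9* lost the call without *siz1-2* MS replicate 3 (adjusted p = 0.079), without the 2 greenest libraries (0.0762), without the chosen pair (0.0761) and with voom (0.0855), and its levels were 1.79 ± 0.735 and 0.627 ± 0.195 FPKM on MS.

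JA and ethylene drive a branch of defence that SA generally opposes, and some of its genes were read beside the SA genes. Of 11 genes of this list 10 were in the table and 6 were tested, and 4 were higher in *siz1-2* over both media (6.32% of all genes), with a list median of 1.16 beside -0.03 over all genes. *PR3*, a basic chitinase, had 24.5, 25.3 and 28.7 FPKM in Col-0 MS and 57.4, 74.2 and 119.5 in *siz1-2* MS, and 59.5, 56.8 and 48.2 against 138, 121 and 111 with IAA. *PR4*, a hevein-like protein, had 64.4, 66.1 and 72.3 FPKM against 155, 173 and 259 on MS and 102, 72.1 and 67.5 against 150, 142 and 142 with IAA. In both genes the mutant was above the wild type on each medium in all libraries, by 1.38 (adjusted p = 3.83e-05) and 1.18 (adjusted p = 5.01e-05) on the log2 scale.

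*ORA59*, an ERF transcription factor at which both hormones meet, rose by 1.15 (adjusted p = 0.00219) and *VSP2*, a JA-responsive acid phosphatase gene, by 1.60 (adjusted p = 0.000148). *VSP2* is low in roots, with 3.25 ± 1.23 and 9.61 ± 3.54 FPKM on MS and 0.229 ± 0.0976 and 2.01 ± 0.433 FPKM with IAA in Col-0 and *siz1-2*. All 4 genes kept the call without *siz1-2* MS replicate 3, without the 2 libraries with the most green marker RNA, with a replicate block and with voom, with log2 fold changes between 1.01 and 2.34. The lists were compared by their counts and medians only, and the contrast between the SA and the JA and ethylene genes was not tested.

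**Figure D4:**
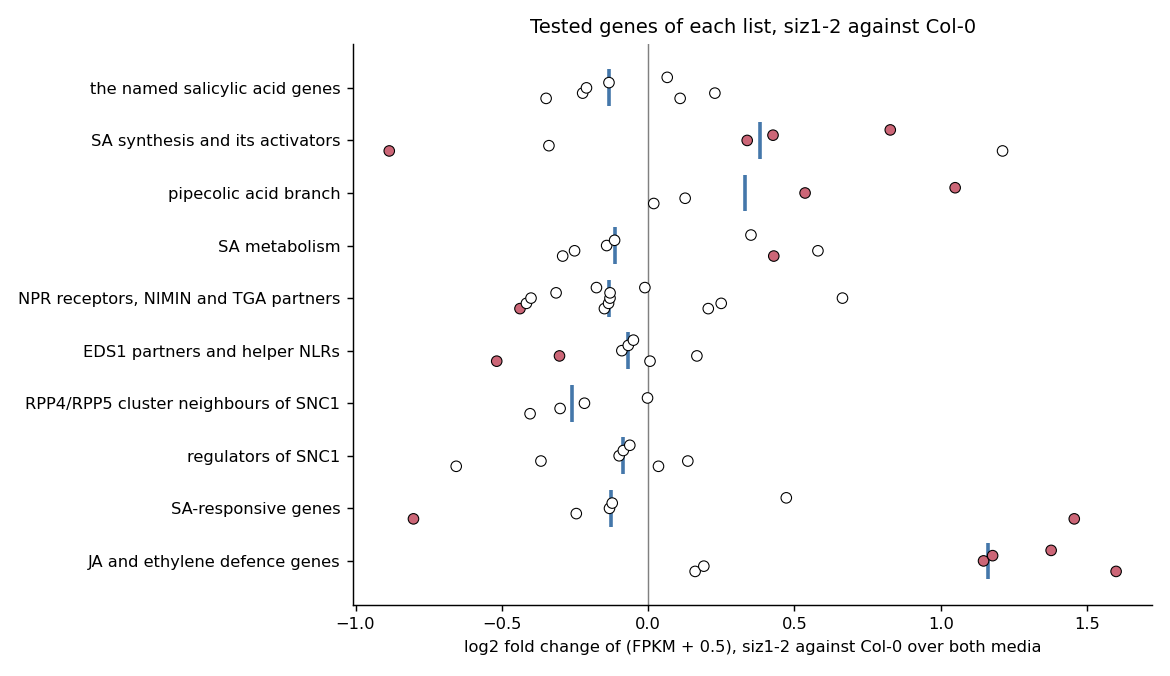
Log2 fold change of (FPKM + 0.5) in *siz1-2* against Col-0 over both media, 1 point per tested gene, filled where the adjusted p is under 0.05, with the median of each list as a vertical line. The 7 tested members lie between -0.35 and 0.23 with none filled, and 4 JA and ethylene genes are filled between 1.15 and 1.60.

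With IAA the other genes of SA synthesis and metabolism gave the following calls, beside 9.09% of all genes higher and 8.21% lower in Col-0 and 9.81% and 8.06% in *siz1-2*. Of the 6 tested genes of synthesis, 3 were lower in Col-0 (*ICS2*, *PAL1* and *PAL2*), and in *siz1-2* the same 3 were lower and *EPS1* was higher. This call of *EPS1* was lost with the 2 greenest libraries left out and with the replicate block. *CBP60g*, named here after its values were seen, passed in neither genotype with all libraries. It had 0.258, 0.259 and 0.128 FPKM in Col-0 MS and 2.26, 1.93 and 2.09 in Col-0 IAA. In *siz1-2* it had 0.770, 0.730 and 17.8 FPKM on MS and 2.40, 3.12 and 2.72 with IAA. Without *siz1-2* MS replicate 3 the list had 1 gene higher and 3 lower in Col-0, and 1 higher and 4 lower in *siz1-2*. *ICS2*, the second isochorismate synthase gene, named here after its values were seen, had 6.27, 9.24 and 9.87 FPKM in Col-0 MS and 0.658, 1.64 and 1.04 in Col-0 IAA, against 4.91, 5.11 and 2.07 and 1.33, 2.17 and 1.17 in *siz1-2*. It fell by 2.49 (adjusted p = 0.000126) in Col-0 and by 1.09 (adjusted p = 0.0338) in *siz1-2*, and the difference between these responses did not pass (1.41, adjusted p = 0.395). Of the 7 tested genes of SA metabolism 2 were higher and 2 lower in Col-0 and 3 higher and 2 lower in *siz1-2*.

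The largest of these changes, also named after the values were seen, was that of *GH3.5*, which encodes an enzyme that conjugates amino acids to IAA and to SA. It had 14.4 to 18.1 FPKM in the 6 MS libraries and 378 to 512 FPKM in the 6 IAA libraries, a log2 fold change of 4.82 (adjusted p = 9.18e-12) in Col-0 and 4.61 (adjusted p = 2.42e-11) in *siz1-2*. *MES1*, an esterase gene whose product releases SA from methyl salicylate, fell by 1.64 (adjusted p = 0.000255) and 1.93 (adjusted p = 6.87e-05).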

How the data were processed

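The authors deposited 1 table of FPKM values, 1 row a gene and 1 column a library, which their sequencing provider computed. No source used here names the aligner. The labels' treatment protocol names IAA for all libraries, and groups were taken from the titles and characteristics. The labels give an age of 7 days and the study's methods 8 days. FPKM multiplied by the RefSeq TAIR10.1 exonic length gave whole fragments for 100% of the values (tolerance 0.05 fragments), and the table's cross-references equal those of RefSeq TAIR10.1 for all 23853 genes, so that build was used. Genes that the table does not list were not analysed here.

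Genes that reached 1 FPKM in fewer than 3 libraries were set aside, and log2(FPKM + 0.5) of the other 18743 was fitted with limma 3.58.1 (R 4.3.3, variance trend, 4 group means, all 12 libraries), with Benjamini-Hochberg adjustment over all genes and a threshold of 0.05. Fold changes on this scale understate the change of low genes. Limma-voom on the recovered fragments was an added alternative, beside pseudocounts of 0.1 and 1, median centring, quantile normalization, filters at 0 and 5 FPKM, a replicate block and each library left out. The fit was tested on simulated data. Python 3.11.15, numpy 2.4.6, pandas 2.3.3, scipy 1.17.1 and matplotlib 3.10.9 were used.

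The members and the lists were chosen with earlier results of these data known. Named were all members, *SIZ1*, up to 4 genes per list that passed over both media, and 3 genes most like each member, and all others are marked as chosen after their values were seen. Replicate numbers were not used as pairs in the reported fit. On MS the deviations of same-numbered libraries of the 2 genotypes had r = 0.12, 0.20 and 0.34. Col-0 MS replicate 1 with *siz1-2* MS replicate 2 had 0.15, so pairing is not shown. Same-numbered libraries of the genotypes with IAA had r = -0.28, -0.27 and 0.06. An alternative fit with a replicate block over all 12 libraries changed no member's call between the genotypes.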

Additional observations from a re-analysis of the deposited data

How the results depend on the processing

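Of 1018 values of the 42 member results under 25 alternatives, 958 kept direction and side of the threshold, 18 passed where the reported value had not, 7 no longer passed, and 35 reversed, none of them called in either fit. The causes were not tested. No alternative called a member between the genotypes with IAA or in the difference of responses.

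The count of members called between the genotypes on MS went from 0 to 1 (*EDS1*) without Col-0 IAA replicate 1 (leave-one-out range 0 to 1) and with the 2 greenest libraries left out. Over both media it went from 0 to 1 in the same 2 settings (range 0 to 1). It went to 3 without the chosen pair (*siz1-2* MS replicate 3 and Col-0 IAA replicate 1), picked after the data had been seen. Adding a fold limit of 2 took the calls with IAA from 3 to 1 in Col-0 and from 3 to 0 in *siz1-2*. The replicate block moved *ICS1* with IAA in *siz1-2* to an adjusted p of 0.0552 (log2 fold change -0.57) and changed no other call. With it 901 genes differed between the genotypes on MS, against 994 without.

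With quantile normalization the reversed values were *NPR1* on MS 0.001446, *SNC1* and *NPR1* with IAA in *siz1-2* -0.0719 and -0.0492, and *ICS1* in the difference of responses -0.007768. With median centring they were *NPR1* on MS 0.0307, and *SNC1* and *NPR1* with IAA in *siz1-2* -0.0707 and -0.0597. With the 2 greenest libraries out they were, between genotypes with IAA, *EDS1* -0.26 and *PAD4* -0.0379, and *SNC1* with IAA in *siz1-2* -0.00245. With the chosen pair out they were *ICS1* on MS -0.0343, *EDS1* and *PAD4* with IAA between genotypes -0.32 and -0.0919, *PAD4* over both media -0.002079, and *SNC1* with IAA in *siz1-2* -0.006443.

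Leaving out 1 library gave ranges across 0 between the genotypes on MS for *ICS1* (-0.0346 to 0.0857), *PAD4* (-0.001633 to 0.19) and *EDS5* (-0.0336 to 0.27), with IAA for *EDS1* (-0.32 to 0.33), *PAD4* (-0.0919 to 0.17) and *WRKY70* (-0.38 to 0.009528), and over both media for *PAD4* (-0.0005061 to 0.13). The same held for IAA against MS in Col-0 for *EDS1* (-0.16 to 0.49), in *siz1-2* for *SNC1* (-0.006443 to 0.11), and for the difference of responses of *PAD4* (-0.18 to 0.0745) and *WRKY70* (-0.0183 to 0.63).

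Over all genes, the count called between the genotypes on MS was 994 and ranged from 531 to 2177 over the alternatives, with IAA 1709 (862 to 2388), and over both media 2691 (1956 to 4382). For IAA it was 3241 in Col-0 (1867 to 4226) and 3349 in *siz1-2* (2017 to 5750), and for the difference 3 (1 to 7). Median centring moved the median log2 fold change of all genes by 0.12 on MS and by -0.11 for IAA in *siz1-2*, and the share of calls that were higher from 51.9% to 68.5% and from 54.9% to 41.9%. Over both media that share went from 44.0% to 58.3%.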

Other observations

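In *siz1-2* MS replicate 3, 8 of 36 SA genes had their highest value of all 12 libraries, none of them a member. *siz1-2* IAA replicate 2 held the highest value of 6, of which 2 are members, and each of the other 10 libraries that of 0 to 4. The share of all genes that were highest in each library was not counted. These counts are therefore not read as a result about SA genes. *CBP60g*, a transcription factor gene that activates *ICS1*, had 17.8 FPKM in *siz1-2* MS replicate 3 (859 fragments), against 0.730 and 0.770 in the other libraries of its group and at most 3.12 elsewhere. The high values that follow are those of the same library. *PBS3*, whose enzyme joins isochorismate to glutamate, had 6.53 FPKM (358 fragments), against at most 0.296 in the other 11. *GSTF6* had 253 FPKM against 12.9 to 87.7, and *SAG13* 1.96 against at most 0.299. *WRKY62* had 0.969 FPKM (22 fragments) against at most 0.0423, *WRKY28* 1.15 against at most 0.434, and *FMO1* and *WRKY54* were 3.44 and 3.80. The camalexin synthesis gene *CYP71A12* had 69.0 FPKM in this library, against 0.476 and 3.80 in the others of its group. In the same library *ICS1* had 4.08 FPKM, *EDS5* 17.1 and *PR2* and *PR5* 0, with *ICS1* inside the range of 3.51 to 4.24 FPKM of the other MS libraries. *CBP60g* and *PBS3* were named after their values were seen, as were *SAG13*, *WRKY62*, *WRKY28*, *WRKY54* and *CYP71A12*.

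In *siz1-2* IAA replicate 2, the other genes at or near 0 elsewhere were also read, chosen after their values were seen. *LOX2* had 5.10 FPKM there against at most 0.0472 in the other 11 libraries, *PDF1.3* 1.84 against 0, and *AIG1* 0.722 against 0. *PNP-A* and *WAK1* were also highest there, at 0.216 and 0.576 FPKM. It is the library that holds the 9 fragments of *PR2* and 5 of the 11 fragments of *PR5*. Col-0 IAA replicate 1, with the larger sum of green markers (1630 against 1231 FPKM), had 0 fragments of *PR2*, *PDF1.3*, *AIG1* and *PNP-A* and 0.0472 FPKM of *LOX2*. It also held 4 fragments of *PR5* (0.187 FPKM) and 0.129 FPKM of *WAK1*. The part of green tissue in these values was not tested.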
